A study of Mus musculus with 9 samples.

Results

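The genes described here are 36 genes of glycolysis and of the transcriptional response to low oxygen, from the glucose carriers Slc2a1 and Slc2a3 through the enzymes of the pathway to lactate dehydrogenase and the lactate carriers, with the oxygen-regulated factor Hif1a, its prolyl hydroxylases Egln1 and Egln3, and hypoxia response genes such as Car9, Adm and Ndrg1. They were chosen by symbol, by a rule that uses no measured value, though with earlier results of these data known, and 36 of 36 were found among the 22609 genes listed for each library. RNA-seq was performed on 9 libraries of tumors grown from 4T1 cells, a mouse mammary carcinoma line used as a model of triple-negative breast cancer (TNBC), implanted orthotopically in the mammary fat pad of syngeneic BALB/c hosts. The LFD group (3 libraries) came from mice on a low-fat diet with 10 kcal% fat, and the HFD group (3 libraries) from mice on a high-fat diet with 60 kcal% fat, both dosed with the vehicle 0.3% hydroxy propyl cellulose. The HFD + EC359 group (3 libraries) had the 60 kcal% diet and EC359, an inhibitor of the leukemia inhibitory factor receptor (LIFR), given intraperitoneally at 5 mg/kg on 5 days per week. All hosts had been on their diet for 6 weeks when 500000 cells were injected in 100 µL, and they stayed on it to the end. Host age and sex for this experiment were not given in the sources used here. No low-fat group with EC359 was analysed here, so the drug was compared on the high-fat diet only. The tumors are from a single cell line, the drug reached the whole animal, and each tumor also holds host cells.

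Glycolysis turns glucose into pyruvate through a chain of cytosolic enzymes, and lactate dehydrogenase with its carriers passes the excess out of the cell as lactate. Many tumors run this pathway fast even with oxygen at hand. When oxygen is short, the prolyl hydroxylases no longer mark HIF-1α for destruction, and the factor binds promoters and enhancers of the glucose carriers, most glycolytic enzymes and genes for acid balance, mitophagy and vessel tone.

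Total counts per library were 5085357 to 6509130 in LFD, 7314704 to 7922852 in HFD and 8043649 to 9751201 in HFD + EC359, so the groups also differed in depth without overlap. Levels are given as CPM, a gene's counts per fixed number of counts in its library, after trimmed-mean (TMM) scaling, and fold changes as fitted log2 values with their standard errors (SE). The libraries of a group lay close together, with a biological coefficient of variation of 3.63% over all groups (5.66% within LFD, 2.54% within HFD and 2.76% within HFD + EC359), and differences far below 2-fold therefore passed the test. The labels number the libraries of a group but do not say whether they came from separate tumors or from related preparations, so that each n, SD and p-value measures only the spread between these libraries, which may be technical. Low-GC genes were read relatively less in LFD than in the other groups: the mean log2 deviation of the 3342 genes of lowest GC content minus that of the 3342 of highest was -0.54 to -0.32 in LFD, 0.10 to 0.16 in HFD and 0.25 to 0.30 in HFD + EC359. Calls that change when the trend of every library over GC content and exon length is removed are therefore given for each comparison.

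Cell type marker lists moved between the groups as well. The 11 epithelial genes, listed for the carcinoma cells, include Krt5 and Krt14, which are also on the epidermis list. The summed level of the 11 was 2071 to 2236 CPM in LFD, 779 to 791 in HFD and 1151 to 1178 in HFD + EC359. Of these genes, 8 of 8 tested were lower in HFD than in LFD and 6 of 8 higher with EC359. Krt14 alone had means of 761, 40.6 and 237 CPM in LFD, HFD and HFD + EC359. Krt8 (599, 408 and 442 CPM) and Krt18 (485, 292 and 304 CPM) moved less, so the sum is not a measure of carcinoma cells alone. The 10 fibroblast genes summed to 7814 to 9266, 13566 to 14315 and 4019 to 4125 CPM, with 10 higher in HFD than in LFD and 6 lower and 1 higher with EC359. The 10 endothelial genes summed to 322 to 333, 539 to 572 and 416 to 442 CPM, with 10 higher in HFD and 8 lower with EC359. The 10 macrophage genes summed to 1768 to 1807, 1631 to 1639 and 2024 to 2043 CPM, but 5 of them were higher and 3 lower in HFD than in LFD, against the direction of the sum, and 8 were higher with EC359. Neutrophil genes summed to 570 to 600, 686 to 706 and 713 to 721 CPM. Erythroid genes summed to 162 to 171, 265 to 290.3 and 189 to 199 CPM, and epidermis genes, which share Krt5 and Krt14 with the epithelial list, to 1249 to 1420.4, 202 to 215 and 647 to 659 CPM. Skeletal muscle genes (190.4 to 199.6, 194 to 199 and 168 to 174 CPM) and adipocyte genes (132 to 141, 134 to 136 and 148 to 152 CPM) moved less, T and NK cell genes summed to at most 22.1 CPM, and nerve and glia genes to at most 9.12 CPM, with Snap25 and Syt1 at 0 in all libraries. The part of these shifts in the results on glycolysis and hypoxia genes was not tested. In bulk tumors, fewer cells of a type and less RNA per cell cannot be told apart.

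Per kilobase of exon, the glycolytic genes covered a wide range. Pkm2, the pyruvate kinase gene under the symbol the files use, had the highest level with 1112 CPM per kilobase in LFD, 840.1 in HFD and 767 in HFD + EC359. Eno1 (enolase, 740.4 in LFD), Aldoa (aldolase, 724), Ndrg1 (a hypoxia-induced gene of differentiation, 456) and Ldha (lactate dehydrogenase A, 453) came next. The hypoxia response genes Egln3 (115), Ero1l (62.5) and Car9 (30.9) lay in the middle, and Slc2a3 (5.29) and Adm (4.37) at the bottom. Single isozymes carried most of the counted RNA at several steps. Ldha was 59.2 times Ldhb, Aldoa 44.8 times Aldoc, Slc2a1 29.7 times Slc2a3 and Eno1 16.8 times Eno2 in LFD, per length. Reads with several matches were in part left out, as given below, so levels of genes with copies in the genome are uncertain. This touches the ratios of Ldha to Ldhb (24.0% and 51.3% of windows copied) and of Eno1 to Eno2 (97.5% and 0%). Aldoa had 1.19% copied, and Aldoc, Slc2a1 and Slc2a3 had 0%. Hk1 and Hk2, the hexokinases that phosphorylate glucose on entry, were at similar levels, 46 and 41.8 CPM per kilobase. Summed over the 36 genes, CPM was 12852 ± 52.8 (SD, n = 3) in LFD, 11348 ± 31.0 in HFD and 10449 ± 52.3 in HFD + EC359. Before TMM scaling, the 36 genes held 1.07% to 1.26% of the counts of a library.

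**Figure D1:**
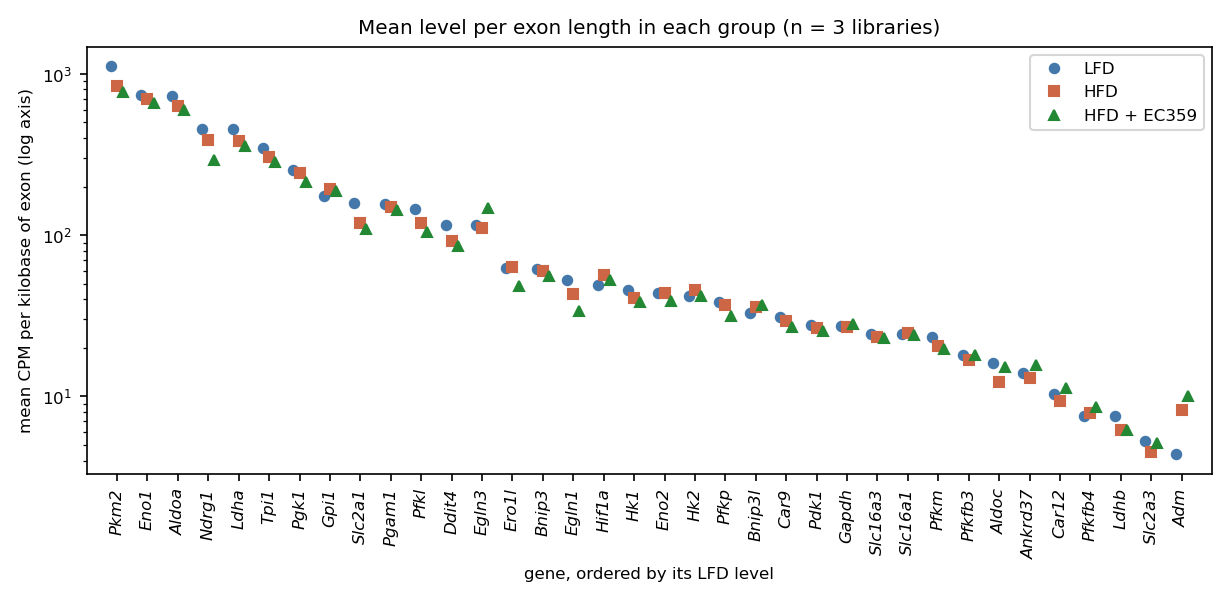
Mean level of each gene per kilobase of exon (y axis, CPM per kilobase, log scale) in LFD (circles), HFD (squares) and HFD + EC359 (triangles), with genes ordered by their LFD level. Pkm2 stands highest at 1112 in LFD and Adm lowest at 4.37, and the difference between genes is far wider than that between the groups of any 1 gene. Levels of genes with copies elsewhere in the genome, such as Gapdh, are uncertain.

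HIF binds the core letters ACGTG, and less often GCGTG, and both were searched on both strands of the RefSeq promoter windows (250 bases before to 50 after each start, build GRCm38.p6). Of the 36 genes, 33 had a window and Slc2a3, Bnip3l and Ndrg1 were not matched. ACGTG was found in 22 of these 33 genes and in 54.3% of the 46 windows of the 33, against 19.6% of all 32851 windows of the same length. Either motif was in 80.4% of the windows of these genes and 43.8% of all. The windows of these genes were also richer in GC (median 61.8% against 52.7%), and the part of that difference was not tested. The palindrome CACGTG holds ACGTG on both strands and counts on each. Windows of 5 genes whose values are given below are shown with each match in capitals, read 5′ to 3′ on the strand of the gene. They are Slc2a1 (chr4:119108495-119108794, plus strand), Egln1 (chr8:124949205-124949504, minus strand), Egln3 (chr12:54203825-54204124, minus strand), Ero1l (chr14:45318523-45318822, minus strand, listed as Ero1a) and Adm (chr7:110627407-110627706, plus strand).
Slc2a1: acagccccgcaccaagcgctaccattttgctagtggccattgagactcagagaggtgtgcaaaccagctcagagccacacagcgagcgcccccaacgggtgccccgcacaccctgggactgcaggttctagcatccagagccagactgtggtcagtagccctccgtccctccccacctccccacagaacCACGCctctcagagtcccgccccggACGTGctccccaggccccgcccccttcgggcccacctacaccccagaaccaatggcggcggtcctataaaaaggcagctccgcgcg
Egln1: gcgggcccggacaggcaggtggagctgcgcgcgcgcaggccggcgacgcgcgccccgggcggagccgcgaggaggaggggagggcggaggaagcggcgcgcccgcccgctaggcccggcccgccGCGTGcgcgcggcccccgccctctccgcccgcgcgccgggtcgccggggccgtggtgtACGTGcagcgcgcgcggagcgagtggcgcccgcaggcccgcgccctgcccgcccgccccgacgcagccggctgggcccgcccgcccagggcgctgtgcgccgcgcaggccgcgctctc
Egln3: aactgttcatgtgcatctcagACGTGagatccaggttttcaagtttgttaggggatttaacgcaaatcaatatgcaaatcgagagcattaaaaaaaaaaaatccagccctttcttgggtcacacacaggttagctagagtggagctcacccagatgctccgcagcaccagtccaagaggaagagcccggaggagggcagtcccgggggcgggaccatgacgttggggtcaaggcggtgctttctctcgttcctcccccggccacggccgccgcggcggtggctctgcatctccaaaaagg
Ero1l: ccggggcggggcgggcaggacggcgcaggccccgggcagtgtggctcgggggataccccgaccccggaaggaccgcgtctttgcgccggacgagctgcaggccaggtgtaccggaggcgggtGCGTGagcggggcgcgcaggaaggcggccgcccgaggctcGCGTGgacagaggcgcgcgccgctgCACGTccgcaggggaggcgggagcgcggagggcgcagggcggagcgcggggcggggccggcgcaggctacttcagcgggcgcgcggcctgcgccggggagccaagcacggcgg
Adm: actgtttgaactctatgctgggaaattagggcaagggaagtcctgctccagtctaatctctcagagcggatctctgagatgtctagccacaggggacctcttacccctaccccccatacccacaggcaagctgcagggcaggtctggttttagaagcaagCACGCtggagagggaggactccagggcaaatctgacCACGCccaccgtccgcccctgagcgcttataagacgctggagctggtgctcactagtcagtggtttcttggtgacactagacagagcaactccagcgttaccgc
The windows of Egln1 and Egln3 both hold ACGTG, that of Egln1 also holds GCGTG, and that of Adm holds GCGTG only, in its reverse form. Sites outside the windows were not searched, and whether any site bears on the changes in RNA was not tested.

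The first comparison, HFD against LFD, asks how tumors in mice on the high-fat diet differ from those on the low-fat diet. HFD tumors had less RNA for the main glucose carrier, for the glycolytic enzymes Pfkl, Aldoc, Tpi1 and Pkm2 and for Ldha, and more RNA for Hk2, Gpi1 and Adm. Hif1a was called higher as well (log2 0.19), but lower with the GC and length trend removed (-0.12), so its direction is not settled. Hk1, Pfkm, Aldoa and Eno1 were called lower, but with that trend removed Eno1 turned higher and the others lost their calls. At an adjusted p under 0.05 (edgeR quasi-likelihood test, Benjamini-Hochberg over 13366 genes), 4 of the 36 genes rose, 13 fell and 19 did not pass. The share called, 47.2%, was near the 51.8% of all genes tested, and its direction was uneven, with 11.1% higher against 26% of all genes and 36.1% lower against 25.8%. The median log2 fold change was -0.085, beside 0.0071 over all genes tested. Libraries of the groups did not overlap for 4 higher and 18 lower genes, beside 57.1% of all genes tested (28.6% in each direction). No gene changed by over 2-fold at an adjusted p under 0.01 with edgeR or with DESeq2, a rule that 5.71% of all genes passed (3.03% higher and 2.68% lower). With edgeR, 5 higher and 16 lower genes had an unadjusted p under 0.05, none of them over 2-fold.

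**Figure D2:**
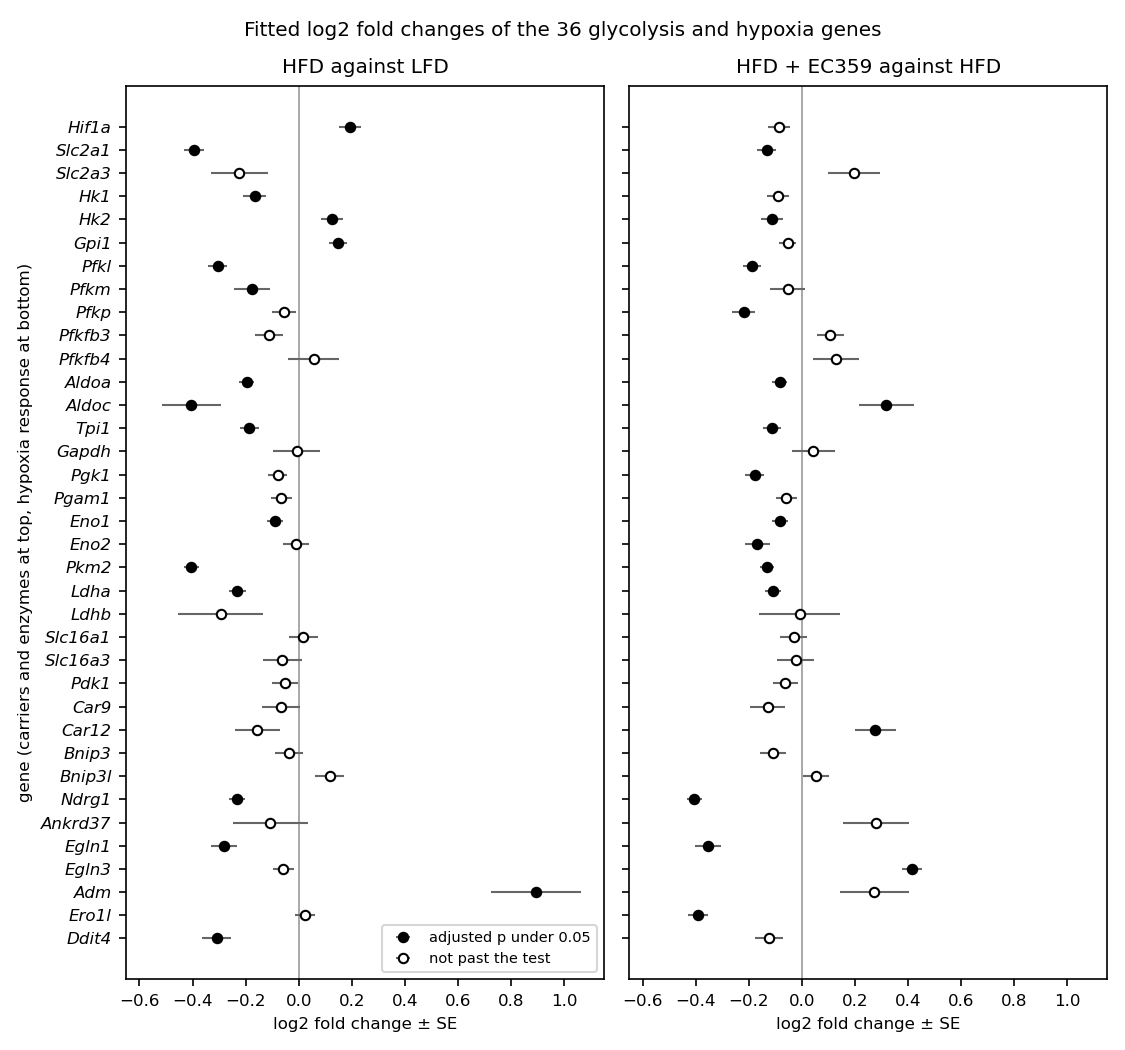
Fitted log2 fold change (x axis) of each of the 36 genes with its SE (bars), for HFD against LFD (left) and HFD + EC359 against HFD (right); filled points have an adjusted p under 0.05. On the left, 13 filled points lie below 0 and 4 above it, with Adm farthest at 0.89, and on the right, 14 lie below and 3 above.

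Among the carriers, Slc2a1 (GLUT1, chr4:118781350-118809934 on mm9, the carrier that brings glucose into most tumor cells) fell. It was at 405, 404 and 405 CPM in the LFD libraries, 304, 312 and 307 in the HFD libraries and 289, 275 and 278 in the HFD + EC359 libraries. The 3 groups did not overlap, and LFD was highest. The log2 fold change was -0.40 ± 0.037 (adjusted p = 1e-10), which is 0.760-fold, and it was -0.27 with the GC and length trend removed. Slc2a3 (GLUT3, a high-affinity carrier) had 20.9 ± 1.25 CPM in LFD and 17.8 ± 0.422 in HFD (SD, n = 3) and did not pass (adjusted p = 0.0798). The lactate carriers Slc16a1 (MCT1) and Slc16a3 (MCT4) did not pass either, with 0.018 and -0.061 on the log2 scale.

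Of the 15 glycolytic enzyme genes, 8 fell (Hk1, Pfkl, Pfkm, Aldoa, Aldoc, Tpi1, Eno1 and Pkm2), 2 rose (Hk2 and Gpi1) and 5 did not pass. Pkm2, which makes the last step from phosphoenolpyruvate to pyruvate, had 2491, 2386 and 2438 CPM in LFD, 1859, 1831 and 1835 in HFD and 1683, 1683 and 1681 in HFD + EC359. These levels fell in order from LFD to HFD + EC359 without overlap, and the log2 fold change of HFD against LFD was -0.40 ± 0.027 (adjusted p = 6.07e-14), or -0.22 with the GC and length trend removed. Counts are per gene, so the splice forms of this gene were not separated. Pfkl, the liver-type phosphofructokinase that commits sugar to the pathway, fell from 544 ± 11.1 to 439.6 ± 9.88 CPM (log2 -0.31, or -0.12 with the trend removed). Aldoc, a minor aldolase, fell to a similar degree (-0.40) at a low level, 25.1 to 29.8 CPM in LFD. Aldoa (-0.20), Tpi1 (triosephosphate isomerase, -0.19, or -0.083 with the trend removed), Pfkm (-0.18), Hk1 (-0.17) and Eno1 (-0.091) fell by less.

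Hk2, the hexokinase bound to mitochondria in many tumors, went the other way. It had 241, 219 and 230.4 CPM in LFD, 249.5, 251 and 252 in HFD and 224, 235 and 236 in HFD + EC359. HFD lay above LFD in every library, and the log2 fold change was 0.13 ± 0.042 (adjusted p = 0.0128). Gpi1, glucose phosphate isomerase, rose from 501 ± 7 to 554 ± 5.93 CPM (log2 0.15). Pgk1, phosphoglycerate kinase and a standard HIF target, had 453, 479 and 445 CPM in LFD, 439.7, 429 and 435 in HFD and 390.2, 381 and 383 in HFD + EC359. Its HFD libraries lay just below those of LFD and it did not pass (-0.079 ± 0.036, adjusted p = 0.0656), whereas it did with the trend removed (-0.11, adjusted p = 0.00818). Gapdh (-0.008), Pgam1 (-0.065), Eno2 (-0.011) and Pfkp (-0.056) did not pass.

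Ldha, which turns pyruvate into lactate, fell. Its levels were 887, 859 and 875 CPM in LFD, 747, 749.8 and 736 in HFD and 705, 684 and 681 in HFD + EC359, without overlap. The log2 fold change of HFD against LFD was -0.23 ± 0.031 (adjusted p = 2.09e-07). Ldhb, the form that favours the reverse reaction, was at most 9.88 CPM in any library and did not pass (-0.29). The regulators of flux did not pass. Pfkfb3 and Pfkfb4, which set the level of the activator of phosphofructokinase, had -0.11 and 0.056. Pdk1, a kinase that inhibits pyruvate dehydrogenase, had -0.051.

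Hif1a itself (chr12:75008854-75048517 on mm9) rose, but this call turned with the processing. It had 225, 231 and 246 CPM in LFD, 262, 269.9 and 272 in HFD and 257, 244 and 256 in HFD + EC359, and LFD and HFD did not overlap. The log2 fold change was 0.19 ± 0.042 (adjusted p = 0.000232) and became -0.12, lower in HFD, with the GC and length trend removed. Its exons hold 41.7% GC, among the lowest of the 36 genes. Egln1 (PHD2), the main hydroxylase that marks HIF-1α for destruction, fell. It was at 194, 182 and 179 CPM in LFD, 155, 154 and 145 in HFD and 128, 117 and 113 in HFD + EC359. The groups did not overlap, and the log2 fold change of HFD against LFD was -0.28 ± 0.049 (adjusted p = 1.55e-05), or -0.13 with the trend removed. Egln3 (PHD3), which hypoxia induces, did not pass (-0.058).

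Of the 9 other hypoxia response genes, Adm rose, Ndrg1 and Ddit4 fell and 6 did not pass. Adm (chr7:117771183-117773333 on mm9) encodes adrenomedullin, a peptide that widens vessels. It had 4.90, 7.06 and 6.16 CPM in LFD, 11, 11 and 12.3 in HFD and 14.7, 14.7 and 12.2 in HFD + EC359. Every HFD library lay above every LFD library, from 24 to 45 counts in LFD and 84 to 90 in HFD. Its log2 fold change of 0.89 ± 0.170 (1.86-fold, adjusted p = 4.71e-05) was the largest of the 36 genes in this comparison, and it was 0.92 with the trend removed. Without LFD replicate 2 it passed the 2-fold rule, so that 1 gene did. Ndrg1, with 1322, 1305 and 1328 CPM in LFD and 1114, 1131 and 1120.4 in HFD, fell, with a log2 fold change of -0.23 ± 0.029 (adjusted p = 4.33e-08). Ddit4 (REDD1, a brake on mTOR signalling) fell from 194 ± 23.1 to 156 ± 0.633 CPM (-0.31), and its call was lost with the trend removed (-0.085). Car9, the carbonic anhydrase that hypoxic tumor cells carry on their surface, had 60.5, 63.3 and 57.6 CPM in LFD, 60.0, 59.8 and 53.5 in HFD and 51.1, 54.9 and 52.5 in HFD + EC359. LFD and HFD overlapped, and it did not pass (-0.067 ± 0.070, adjusted p = 0.442). Car12 (-0.16), the mitophagy receptors Bnip3 (-0.036) and Bnip3l (0.12), Ankrd37 (-0.11) and the oxidoreductase of the endoplasmic reticulum Ero1l (0.023) did not pass. With the trend removed, Bnip3 (-0.32, adjusted p = 9.47e-06), Ero1l (-0.29), Bnip3l (-0.17) and Car12 (-0.21) passed as lower.

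With the GC and length trend removed, 3 of the 4 higher genes (Hk2, Gpi1 and Adm) and 8 of the 13 lower genes (Slc2a1, Pfkl, Aldoc, Tpi1, Pkm2, Ldha, Ndrg1 and Egln1) kept their call and direction, Eno1 turned higher (0.072), and Hk1, Pfkm, Aldoa and Ddit4 lost theirs. In all, 5 genes were then higher and 19 lower. Besides Hif1a, those new among the lower genes were Slc2a3 (-0.26), Pfkp (-0.11), Pfkfb3 (-0.13), Pgk1, Pdk1 (-0.20, adjusted p = 0.000869), Slc16a1 (-0.24), Car12, Bnip3, Bnip3l and Ero1l, and Slc16a3 (0.17) was new among the higher ones. Of the 18 genes above the median GC of 53.1%, 11 fell and 1 rose, against 2 and 3 of the 18 at or below it, and with the trend removed it was 6 and 3 above and 13 and 2 below. Leaving out 1 library lost the calls of Eno1 (-0.078 without HFD 1, -0.076 without LFD 3), Hk2 (0.086 without LFD 2) and Pfkm (-0.15 without HFD 2, -0.14 without HFD 3, -0.16 without LFD 1, -0.15 without LFD 2), and gave a call to Pgk1 (-0.089 without LFD 1, -0.10 without LFD 3), Egln3 (-0.092 without LFD 1), Pfkfb3 (-0.15 without LFD 2) and Bnip3l (0.15 without LFD 2). DESeq2 also lost the call of Pfkm (-0.18), and thinning to equal totals those of Pfkm (-0.17) and Hk2 (0.11). Thinning gave a call to Ldhb (-0.55) and Pgk1 (-0.097). With library totals only, Eno1 (-0.048) and Pfkm (-0.13) lost their calls and Bnip3l (0.16) gained a call, which left 5 higher and 11 lower genes.

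**Figure D3:**
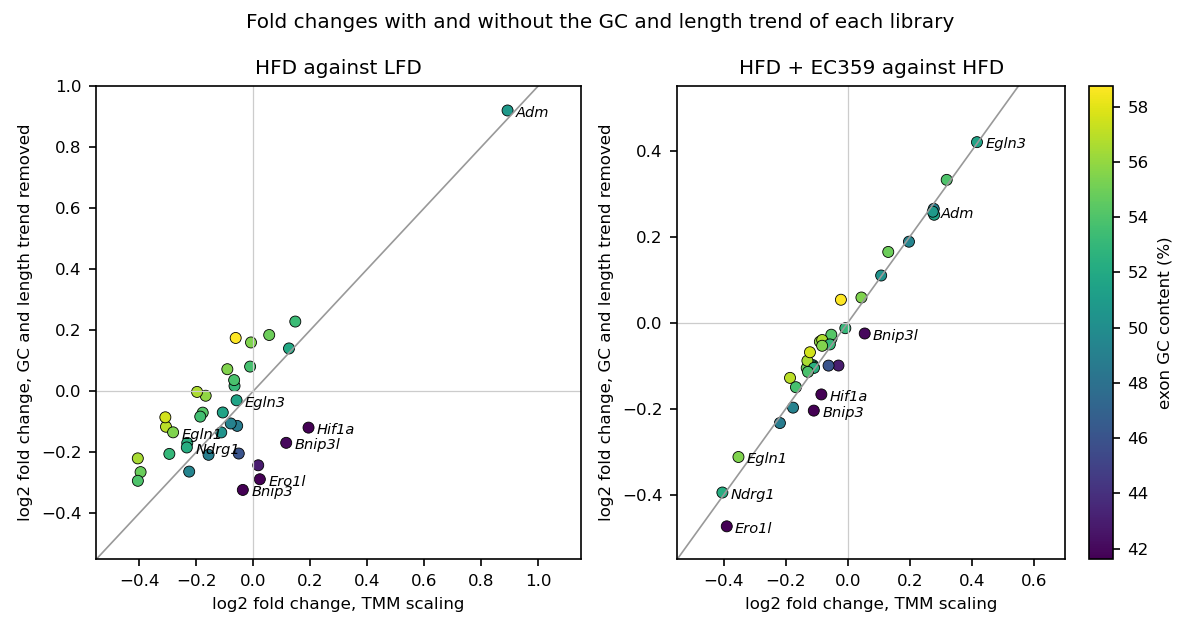
Log2 fold change of each gene with TMM scaling (x axis) against the value after correction of each library for GC content and exon length (y axis), coloured by exon GC content (%), for HFD against LFD (left) and HFD + EC359 against HFD (right); the line marks equal values. On the left, low-GC genes such as Hif1a (0.19 to -0.12) and Ero1l (0.023 to -0.29) lie below the line, and on the right, Egln3, Ndrg1 and Egln1 lie near it.

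The second comparison, HFD + EC359 against HFD, asks how tumors in EC359-treated mice differ from those in vehicle-treated mice on the high-fat diet. EC359 tumors had less RNA for Ndrg1, Ero1l, Egln1 and several glycolytic enzymes, and more RNA for Egln3, Aldoc and Car12. Some of these calls depended on the processing. Hk2, Aldoa and Eno1 lost theirs with the GC and length trend removed and, with Tpi1, under library totals only. That of Aldoc was lost with DESeq2 and with thinning. Of the 36 genes, 3 rose, 14 fell and 19 did not pass (edgeR, adjusted p under 0.05). The share called was 47.2%, beside 26.6% of all genes tested, with 8.33% of the genes higher against 12.7% of all and 38.9% lower against 13.9%. With scaling by library totals only, 4 rose and 9 fell. The median log2 fold change was -0.083, beside 0.0056 over all genes, and the libraries did not overlap for 7 higher and 21 lower genes, beside 41.3% of all genes (20.6% higher and 20.7% lower). No gene passed the 2-fold rule with edgeR or DESeq2, which 3.43% of all genes passed (2.06% higher and 1.38% lower), while 6 higher and 18 lower genes had an unadjusted edgeR p under 0.05. This comparison and the first share the HFD libraries, so their values are not independent.

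**Figure D4:**
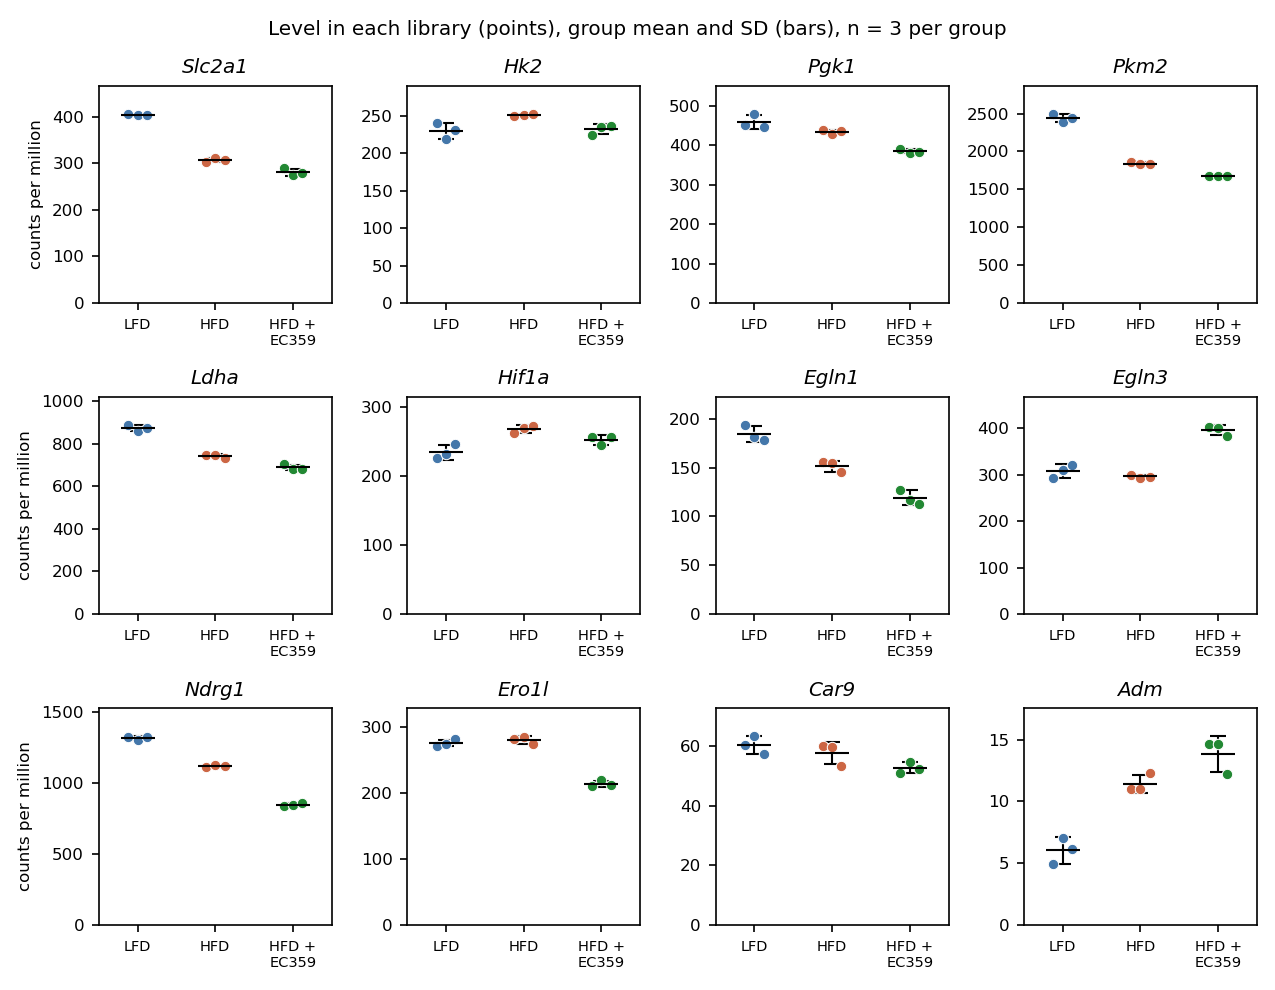
Level in CPM (y axis, from 0) of 12 genes in each library (points) of LFD, HFD and HFD + EC359, with the group mean (line) and SD (bars, n = 3). Pkm2, Ldha, Egln1 and Ndrg1 step down from LFD to HFD to HFD + EC359, Egln3 is higher in HFD + EC359 only (383 to 402 CPM against 293 to 300.2 in HFD), and Ero1l is lower there (211 to 219.7 against 274 to 285).

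The prolyl hydroxylases moved in opposite directions. Egln3 was at 293, 310.3 and 321 CPM in LFD, 300.2, 293 and 295 in HFD and 402, 401 and 383 in HFD + EC359. Its EC359 libraries lay above all others, with a log2 fold change of 0.42 ± 0.038 (1.33-fold, adjusted p = 1.6e-10), the largest rise of the 36 genes in this comparison. Egln1 fell, as its values above show, with a log2 fold change of -0.35 ± 0.049 (adjusted p = 1.06e-06). Both calls stood with the GC and length trend removed, at 0.42 and -0.31. Hif1a did not pass (-0.086 ± 0.040, adjusted p = 0.116) and had -0.17 with the trend removed, past the threshold.

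Among the hypoxia response genes, the largest falls were those of Ndrg1 and Ero1l. Ndrg1 had 840.0, 844 and 858 CPM with EC359, against the 1114, 1131 and 1120.4 of HFD given above, a log2 fold change of -0.40 ± 0.029 (adjusted p = 4.23e-13). Ero1l, which forms disulphide bonds in secreted proteins, had 272, 274 and 282 CPM in LFD, 282, 285 and 274 in HFD and 211, 219.7 and 212 in HFD + EC359. Its EC359 libraries lay below all the others, and the log2 fold change was -0.39 ± 0.038 (adjusted p = 8.96e-10). Car12, a surface carbonic anhydrase like Car9, rose from 34.7 ± 2.44 to 42.1 ± 1 CPM (0.28), while Car9 did not pass (-0.13 ± 0.067, adjusted p = 0.16). Adm (0.27 ± 0.130, adjusted p = 0.123), Ddit4 (-0.12), Bnip3 (-0.11), Bnip3l (0.054) and Ankrd37 (0.28) did not pass.

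Of the 15 enzyme genes, 9 fell, 1 rose and 5 did not pass. Pfkp, the platelet-type phosphofructokinase, fell most, from 147 ± 6.48 to 127 ± 2.81 CPM (log2 -0.22 ± 0.045, adjusted p = 0.000316). Pfkl (-0.19), Pgk1 (-0.18), Eno2 (-0.17), Pkm2 (-0.13), Hk2 (-0.11), Tpi1 (-0.11), Eno1 (-0.083) and Aldoa (-0.083) fell by smaller steps. Pgk1, with values in every library given above, was lower in each EC359 library than in each HFD library (adjusted p = 0.000235), and so was Hk2 (adjusted p = 0.0355). Aldoc rose from 20.9 ± 3.70 to 26 ± 0.464 CPM (0.32), back to the range of LFD (25.1 to 29.8). Hk1 (-0.090), Gpi1 (-0.053), Pfkm (-0.053), Gapdh (0.044) and Pgam1 (-0.058) did not pass.

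Slc2a1 fell (log2 -0.13 ± 0.036, adjusted p = 0.00599), and so did Ldha (log2 -0.11 ± 0.031, adjusted p = 0.00786), both without overlap of the libraries. Slc2a3 (0.20), Slc16a1 (-0.030), Slc16a3 (-0.023), Ldhb (-0.008), Pfkfb3 (0.11), Pfkfb4 (0.13) and Pdk1 (-0.062) did not pass.

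With the GC and length trend removed, 3 of 3 higher genes and 11 of 14 lower genes kept their call, Hk2, Aldoa and Eno1 lost theirs, and Bnip3 (-0.20, adjusted p = 0.00283) and Hif1a became lower. With library totals only, Slc2a1 and Ndrg1 kept theirs, and Ldha, Tpi1, Hk2, Aldoa and Eno1 did not. Leaving out 1 library lost the calls of Aldoc (0.30 without HFD + EC359 2, 0.33 without HFD + EC359 3, 0.21 without HFD 1, 0.29 without HFD 2), Car12 (0.24 without HFD 2), Tpi1 (-0.095 without HFD 3), Aldoa (-0.080 without HFD + EC359 1, -0.086 without HFD + EC359 2, -0.087 without HFD + EC359 3, -0.081 without HFD 1, -0.079 without HFD 3), Eno1 (-0.079 without HFD + EC359 1, -0.10 without HFD + EC359 2, -0.079 without HFD + EC359 3, -0.081 without HFD 2, -0.077 without HFD 3) and Hk2 (-0.090 without HFD + EC359 1, -0.12 without HFD + EC359 2, -0.12 without HFD 1, -0.11 without HFD 2, -0.11 without HFD 3), so that without HFD replicate 2 only 1 gene, Egln3, was higher. It gave a call to Bnip3 (-0.11 without LFD 1), Ddit4 (-0.12 without LFD 1, -0.13 without LFD 2) and Hif1a (-0.086 without LFD 1). DESeq2 also lost the calls of Aldoc (0.31) and Hk2 (-0.12), and thinning to equal totals those of Aldoc (0.24), Hk2 (-0.12) and Aldoa (-0.077).

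The third comparison sets the EC359 tumors on the high-fat diet beside the vehicle tumors on the low-fat diet, a difference of both diet and drug that shares libraries with each of the others. Here 5 genes rose (Hif1a, Gpi1, Bnip3l, Egln3 and Adm), 20 fell and 11 did not pass, 69.4% of the genes beside 58.3% of all genes tested, with 13.9% higher against 29.2% of all and 55.6% lower against 29.1%. With library totals only, 7 rose and 15 fell. The median log2 fold change was -0.16, beside 0.011 over all genes, and the libraries did not overlap for 6 higher and 21 lower genes, beside 62.9% of all genes (31.8% higher and 31.1% lower). Adm alone passed the 2-fold rule (1.17 ± 0.160, 2.24-fold, adjusted p = 1.78e-07), which 5.09% of all genes passed (3.66% higher and 1.43% lower). Ndrg1 (-0.64), Egln1 (-0.63), Pkm2 (-0.54), Slc2a1 (-0.53) and Pfkl (-0.49) had the largest falls. Ddit4 (-0.43), Ero1l (-0.37), Ldha (-0.34) and Pgk1 (-0.26) fell too, as did Car9 (-0.20 ± 0.069, adjusted p = 0.0163). Hk2 did not pass (0.013).

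With the GC and length trend removed, 3 of the 5 higher genes (Gpi1, Egln3 and Adm) and 13 of the 20 lower genes kept their call, and Hif1a (0.11 to -0.29) and Bnip3l (0.17 to -0.19) turned lower. Hk1, Pfkm, Aldoa, Pgam1, Eno1, Eno2 and Car9 lost theirs. Pfkfb4 (0.35), Gapdh (0.22) and Slc16a3 (0.23) became higher and Slc16a1 (-0.34) lower, which made 6 higher and 16 lower genes in all. Leaving out 1 library lost the calls of Hif1a (0.10 without HFD + EC359 1, 0.090 without HFD + EC359 3, 0.083 without LFD 1, 0.090 without LFD 2), Gpi1 (0.087 without HFD + EC359 1, 0.077 without LFD 2), Car9 (-0.17 without HFD + EC359 1, -0.17 without LFD 2), Bnip3 (-0.10 without LFD 1), Pgam1 (-0.10 without HFD + EC359 3) and Pdk1 (-0.10 without HFD + EC359 1, -0.11 without HFD + EC359 3, -0.11 without HFD 1, -0.11 without HFD 2, -0.065 without LFD 1), so that 3 genes were higher without LFD replicate 2 and without HFD + EC359 replicate 1, and gave a call to Ldhb (-0.41 without HFD + EC359 1). DESeq2 also lost the calls of Hif1a (0.10) and Pdk1 (-0.12). That of Pdk1 was lost as well with no filter on low counts (-0.11), a filter of 10 counts in every library (-0.11), library totals only (-0.038), thinning (-0.11) and the fit on the 6 libraries compared (-0.12), and that of Hif1a with thinning (0.10).

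Ratios of isozymes within a library do not depend on library scaling, but they do move with the GC trend where the genes differ in GC content. Egln3 per Egln1 (per length) was 1.99, 2.25 and 2.37 in LFD, 2.54, 2.50 and 2.68 in HFD and 4.15, 4.53 and 4.47 in HFD + EC359. The EC359 ratios lay above all the others, with a log2 difference of 0.77 from HFD. Hk2 per Hk1 was 0.912, 0.855 and 0.961 in LFD, 1.11, 1.12 and 1.11 in HFD and 1.05, 1.12 and 1.12 in HFD + EC359, higher in every high-fat library than in LFD. Pfkp per Pfkl was 0.255, 0.267 and 0.266, 0.314, 0.332 and 0.292 and 0.313, 0.301 and 0.303, and Pfkfb4 per Pfkfb3 0.421, 0.417 and 0.422, 0.469, 0.468 and 0.477 and 0.471, 0.471 and 0.493, both higher on the high-fat diet. Pfkp and Pfkl differ in exon GC content (48.8% and 57%), and with the trend removed they had nearly the same log2 fold change in HFD against LFD, -0.11 and -0.12, where their ratio had differed by 0.25. Pfkfb4 and Pfkfb3 then had 0.18 and -0.13, and Hk2 and Hk1 0.14 and -0.015. Car9 per Car12 was 3.05, 3.01 and 2.84 in LFD and 3.34, 3.46 and 2.71 in HFD, and lower with EC359 at 2.25, 2.48 and 2.42. Of 12 pairs, 5 had ratios higher in all HFD than in all LFD libraries and 0 lower, and 4 were higher and 2 lower with EC359 than in HFD. Of all single genes tested, 28.6% did not overlap in each direction in HFD against LFD. With EC359 against HFD it was 20.6% higher and 20.7% lower. The share over other pairs of genes was not tested. An exact two-sided permutation test with 3 against 3 libraries cannot go below p = 0.1, which the pairs without overlap reached, or 0.18 adjusted over the 36 tests.

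Other genes of the same pathways were taken from a list of 96, of which 84 were tested. Of these 84, 29 were higher and 20 lower in HFD than in LFD, 8 higher and 23 lower with EC359 than in HFD, and 23 higher and 29 lower with EC359 than in LFD. Of all genes tested, 26% were higher and 25.8% lower in HFD than in LFD, 12.7% and 13.9% with EC359 than in HFD, and 29.2% and 29.1% with EC359 than in LFD. Among 39 other hypoxia response genes tested, 16 rose and 6 fell in HFD against LFD, and 3 rose and 15 fell with EC359 against HFD. Of 12 other glycolytic enzyme and isozyme genes, 1 rose and 6 fell with the high-fat diet, and 2 rose and 3 fell with EC359.

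Those with the largest called changes, with Vegfa, are described next. Stc1 (stanniocalcin) had 26.6, 32.3 and 23.1 CPM in LFD, 117, 116 and 122 in HFD and 77.1, 75.5 and 67.4 in HFD + EC359, a 4.29-fold rise in HFD against LFD (adjusted p = 1.46e-20) and 0.620-fold the HFD level with EC359 (adjusted p = 9.92e-11). Lox, a lysyl oxidase that crosslinks collagen, had 17.4, 19.3 and 19, 62.6, 61.8 and 63.6 and 23.1, 19.5 and 21 CPM, with 1.75 ± 0.092 and -1.56 ± 0.081. Fibroblast markers moved the same way, as given above. Vegfa, the main angiogenic factor, had 209, 193 and 201, 266, 260.4 and 278 and 164, 162 and 170.2 CPM, rising by 0.42 and then falling (-0.69). Hmox1 (heme oxygenase) had 123 to 133, 188 to 191 and 101 to 106 CPM (0.59 and -0.89), past the test in both comparisons. Stc1, Lox, Vegfa and Hmox1 were higher in HFD than in LFD and lower with EC359, whereas Slc2a1, Pkm2, Ldha, Ndrg1 and Egln1 were lower in HFD and lower again with EC359. The genes were grouped here by their values, and Ero1l, Egln3 and Adm followed neither course. In the handling of pyruvate, Brp44 (the mitochondrial pyruvate carrier subunit Mpc2) fell with the high-fat diet (-0.85, from 20.8 ± 1.33 to 11.4 ± 1.30 CPM) and Brp44l (Mpc1) rose (0.72) at no more than 6.26 CPM, a call lost without LFD replicate 1 (0.45), LFD replicate 2 (0.62) or HFD replicate 3 (0.57), with DESeq2 (0.72), with thinning (0.64) and with the trend removed (0.51). Slc16a7 (MCT2) rose at a low level, from 1.14 ± 0.562 to 3.67 ± 0.134 CPM (1.69). Pdk4, which shuts the pyruvate dehydrogenase gate, rose with EC359 (0.94) from 1.57 ± 0.238 to 3.05 ± 0.482 CPM, a call lost without HFD + EC359 replicate 1 (0.89), replicate 2 (0.85) or HFD replicate 2 (0.82), and with DESeq2 (0.95).

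Several of these genes have processed copies in the genome, and by the counting settings reads that map to more than 1 place were left out below a mapping quality of 2 and otherwise counted in fractions. In windows of 150 bases along the exons, 100% of the Gapdh windows, 97.5% of those of Eno1, 94.7% of Pgam1, 88.0% of Pgk1, 74.5% of Bnip3 and 67.3% of Pkm2 had a match elsewhere on mm9 with at most 3 mismatches. Gapdh, usually among the most abundant RNAs, was listed at only 32.0 to 35.9 CPM, and its level and changes are uncertain. Ero1l (52.5%), Ldhb (51.3%), Gpi1 (49.4%), Bnip3l (37.2%), Tpi1 (35.6%) and Ldha (24.0%) also had copies, and 22 genes had none, among them Slc2a1, Hk1, Hk2, Pfkl, Ndrg1, Egln3 and Adm. Among the 24 genes with at most 10% of windows copied, 3 rose and 9 fell in HFD against LFD, 3 rose and 8 fell in HFD + EC359 against HFD, and 3 rose and 12 fell in HFD + EC359 against LFD. For the other 12 genes the counts were 1 and 4, 0 and 6, and 2 and 8, in the same order. Of all genes tested, 26% were higher and 25.8% lower in the first comparison, 12.7% and 13.9% in the second, and 29.2% and 29.1% in the third.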

How the data were processed

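Per the labels, stranded mRNA libraries were made from total RNA of tumors (9 libraries, with separate tumors not stated) and sequenced as 150 base pairs paired-end. Submitters' processing notes name bcl2fastq, HISAT2 2.1.0, featureCounts and mm9, while the study's methods name TopHat2 and HTSeq. The file headers show featureCounts 1.5.0-p1 counting over exons by gene with a minimum mapping quality of 2, strand setting 2 and fractional counting of reads with several matches. The deposited values are therefore expected counts (1.19% to 3.55% of genes per library had fractions), which were rounded to whole numbers here. The file headers also give exon length, used for levels per kilobase.

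Counts of all 9 libraries were fitted together (edgeR 4.0.16, R 4.3.3, limma 3.58.1) with filterByExpr, TMM scaling and quasi-likelihood tests, and p-values were adjusted by Benjamini-Hochberg over 13366 genes. The call was an adjusted p under 0.05. The 2-fold rule, a fold change over 2 with an adjusted p under 0.01, is that of the study's methods. A figure legend of the study instead gives a log2 fold change of at least 2. All 36 genes passed the filter. DESeq2 1.42.0, other scalings and filters, thinning and each library left out were alternatives. GC content came from mm9 exons, and copies were sought with minimap2 2.31. Isozyme ratios had a pseudocount of 0.5 (exact permutation test, scipy 1.17.1). The scripts were tested on simulated data. Libraries of a group differed beyond sampling noise (mean chi-square per gene 1.35 to 2.99), and no library was merged. The labels give no batch.

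The genes and all lists were chosen with earlier results of these data known. Values in every library are given for those of the 36 genes called past 1.5-fold and for Hif1a, Slc2a1, Hk2, Pgk1, Ldha and Car9. Pkm2, Egln1, Egln3, Ndrg1, Ero1l, Stc1, Lox and Vegfa were added after their values were seen. Of 96 other pathway genes, the 5 with the largest called changes in each of the first 2 comparisons are named, except for a result that is not reported here. A total of 5085357 counts puts 3 counts at 0.590 CPM, and 9751201 counts at 0.308 CPM, which covers counting error only.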

Additional observations from a re-analysis of the deposited data

How the results depend on the processing

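Depth and scaling set the limits: most calls were under 1.5-fold, groups did not overlap in depth, and the GC trend differed between them. Among genes called with or without the GC and length trend, reversed values came only from removing it. In HFD against LFD these were Hif1a (-0.12), Eno1 (0.072), Slc16a1 (-0.24), Slc16a3 (0.17), Bnip3l (-0.17) and Ero1l (-0.29). In HFD + EC359 against LFD they were Hif1a (-0.29), Eno1 (0.018), Slc16a3 (0.23) and Bnip3l (-0.19). Removing the GC and length trend also turned the sign of genes called in neither fit. They were Gapdh, Pgam1, Eno2 and Car9 in HFD against LFD, Aldoc in HFD + EC359 against LFD, and Bnip3l and Slc16a3 in HFD + EC359 against HFD. That setting also moved the median of HFD + EC359 against LFD to -0.088. With library totals only, the median was -0.042 in HFD against LFD and -0.085 in HFD + EC359 against LFD, and 9 rather than 14 genes were lower in HFD + EC359 against HFD. DESeq2 called 2 rather than 8 other pathway genes higher in HFD + EC359 against HFD. The cause was not tested. Scaling by RLE factors changed no call of the 36 genes in any comparison. Thinning all libraries to 5085357 counts changed 4 calls in HFD against LFD, 3 in HFD + EC359 against HFD and 3 in HFD + EC359 against LFD, and the fit on the 6 libraries compared changed 0, 4 and 1.

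Leaving out 1 library gave 0 to 1 genes past the 2-fold rule and higher in HFD against LFD, 1 to 3 genes higher in HFD + EC359 against HFD, 3 to 5 higher in HFD + EC359 against LFD, and 3 to 10 other pathway genes higher in HFD + EC359 against HFD. Isozyme pairs with all libraries lower were 0 to 1 in HFD against LFD and 1 to 2 in HFD + EC359 against LFD. Libraries with the same replicate number showed no shared deviation (correlation -0.030 to 0.017 across genes). Counting noise also lowers such a correlation, so it cannot exclude a pairing by number, and the labels do not state one. A replicate block changed no call of the 36 genes in any comparison, with 4 higher and 13 lower in HFD against LFD, 3 and 14 in HFD + EC359 against HFD, and 5 and 20 in HFD + EC359 against LFD, while 1 isozyme pair rather than 0 was lower in HFD against LFD under the pairing.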
